A study of Mus musculus with 3 samples.

Results

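The genes described here are 9 markers of GABAergic interneurons, the inhibitory neurons of the hippocampus that release gamma-aminobutyric acid (GABA). They are Gad1, Gad2, Slc32a1, Pvalb, Lhx6, Ndnf, Lamp5, Reln and Erbb4, chosen by name from the 54532 genes of the deposited expression table, and all 9 were found there once each. RNA sequencing was done on hippocampus of C57BL/6 mice aged 10 months in 3 libraries, 1 per genotype. The genotypes were wild type (WT), PS19, and PS19 with 1 intact Zbp1 allele (PS19 Zbp1+/-). PS19 animals carry a human tau transgene that the mouse Prnp promoter drives, and they model tauopathy, so PS19 and PS19 Zbp1+/- share the transgene and WT lacks it. Zbp1 encodes an innate immune protein that binds Z-form RNA and DNA. The groups allow PS19 to be set against WT, and PS19 with a lowered Zbp1 dose against both. Sex and the number of animals behind each library are not given in the sources used here.

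Levels are given as FPKM, that is, fragments per length of a gene and per size of the library. Whole reads were recovered from them, 16746085 in WT against 16400328 in PS19 and 17109734 in PS19 Zbp1+/-. FPKM values and read ratios rest not on these totals but on implied library sizes. Those sizes were 1.725e+07, 1.729e+07 and 1.583e+07, in that order. The implied size was below the recovered total for PS19 Zbp1+/- and above it for WT and PS19. With 1 library per genotype there is no replicate check and no test of genotype. The 95% intervals given are exact and cover counting error only, and PCR copies in the reads are not independent molecules. The targeted gene, Zbp1, was counted with 5 reads in WT, with 91 in PS19 and with 0 in the library labelled PS19 Zbp1+/-, where a count of 0 allows up to 3 reads. Xist had 11062, 13350 and 0 reads and the Y-linked Ddx3y 0, 0 and 711, so sex and Zbp1 genotype cannot be told apart. All 9 interneuron genes had at least 311 reads in every library.

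GABA is made from glutamate by the glutamate decarboxylases encoded by Gad1 and Gad2 and loaded into vesicles by the transporter encoded by Slc32a1, and this set is shared by nearly all inhibitory neurons. Interneurons fall into classes by origin and by markers. Cells from the medial ganglionic eminence keep the transcription factor Lhx6 and include the fast-spiking basket cells that contain parvalbumin (Pvalb). Neurogliaform cells express Lamp5, Ndnf and Reln, and Erbb4, a receptor for neuregulins, is enriched in interneurons. Several of these genes are not exclusive to interneurons, since Reln and Ndnf are also made by Cajal-Retzius cells and Lamp5 by some excitatory neurons.

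Gad1 was the most abundant of the 9 per unit of gene length in each library, and Ndnf the least abundant. In WT the order of FPKM was Gad1 (47.9), Pvalb (31.6), Slc32a1 (31.3), Gad2 (27.1), Lamp5 (11.4), Erbb4 (4.81), Lhx6 (3.75), Reln (2.82) and Ndnf (1.86). Pvalb and Slc32a1 were the neighbours in that order whose counting intervals overlapped. In PS19 the intervals of Pvalb and Slc32a1, of Slc32a1 and Gad2, of Lamp5 and Erbb4, and of Lhx6 and Reln overlapped. In PS19 Zbp1+/-, Slc32a1 came after Gad1, Gad2 and Pvalb overlapped, and Lhx6 passed Erbb4.

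**Figure D1:**
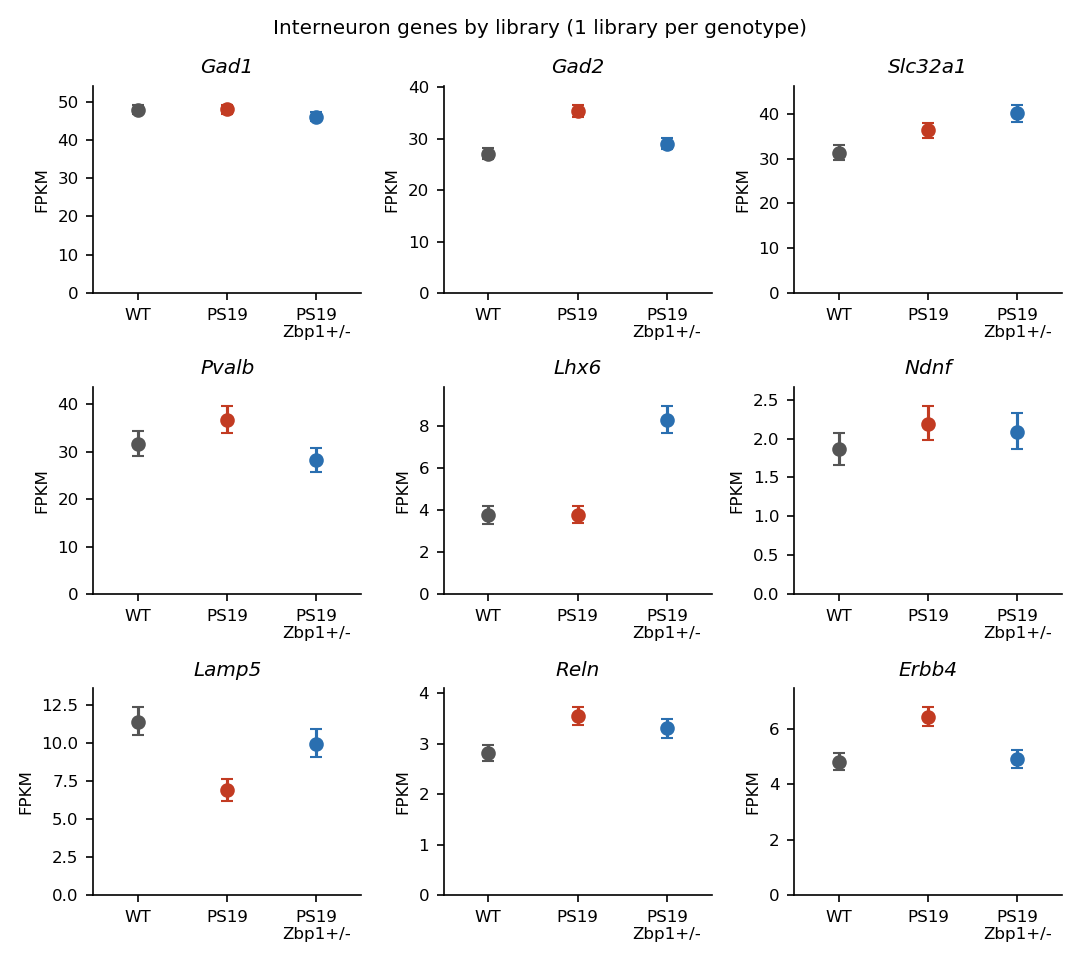
FPKM of each of the 9 interneuron genes (vertical axis, starting at 0) in the WT, PS19 and PS19 Zbp1+/- libraries, with 95% counting intervals as bars. Gad1 lay between 46.1 and 47.9 in the 3 libraries, Lamp5 was lowest in PS19 at 6.88, and Lhx6 was highest in PS19 Zbp1+/- at 8.31.

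Of the GABA synthesis and release genes, Gad1 (ENSMUSG00000070880, chromosome 2, 70553072 to 70602014) stood at nearly the same level in the 3 libraries on the deposited scale. Its difference of -0.06 log2 units between PS19 Zbp1+/- and PS19 was -0.34 after rescaling to TPM and -0.24 with scaling by total reads. Its FPKM was 47.9 in WT against 47.9 in PS19 and 46.1 in PS19 Zbp1+/-, from 6308, 6332 and 5568 reads. The read ratio per library size was 1.002 (0.967 to 1.04) from WT to PS19, and PS19 Zbp1+/- was 0.961 times PS19 (0.926 to 0.996). Gad1 encodes GAD67, the enzyme that supplies most of the GABA of the cell.

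Gad2 (chromosome 2, 22622205 to 22693874), which encodes the synaptic enzyme GAD65, was highest in PS19. Its FPKM was 27.1 in WT against 35.4 in PS19 and 29.0 in PS19 Zbp1+/-, from 2743, 3596 and 2700 reads. PS19 was 1.31 times WT (1.24 to 1.38), PS19 Zbp1+/- was 0.820 times PS19 (0.780 to 0.862), and PS19 Zbp1+/- was 1.07 times WT (1.02 to 1.13). The last difference, 0.10 log2 units, turned to -0.055 after rescaling to TPM and to -0.052 with scaling by total reads. The FPKM ratio of Gad1 to Gad2 within a library, which no library scaling can alter, was 1.77 in WT against 1.35 in PS19 and 1.59 in PS19 Zbp1+/-. The ratio was lowest in PS19.

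Slc32a1 (chromosome 2, 158610767 to 158615748), the vesicular GABA transporter gene, had its lowest value in WT and its highest in PS19 Zbp1+/-. The FPKM was 31.3 in WT against 36.3 in PS19 and 40.1 in PS19 Zbp1+/-, from 1511, 1754 and 1774 reads. PS19 was 1.16 times WT (1.08 to 1.24) and PS19 Zbp1+/- 1.28 times WT (1.19 to 1.37). The step from PS19 to PS19 Zbp1+/-, 1.105 (1.03 to 1.18), turned from 0.14 to -0.14 on the log2(FPKM + 1) scale after rescaling to TPM, to -0.044 with scaling by total reads, and to -0.19 after a correction for GC content and length. Its direction depends on the scaling.

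Lhx6 (ENSMUSG00000026890, chromosome 2, 36081953 to 36105408, minus strand), the transcription factor of interneurons from the medial ganglionic eminence, was the gene of the 9 with the largest difference involving PS19 Zbp1+/-. Its FPKM was 3.75 in WT against 3.78 in PS19 and 8.31 in PS19 Zbp1+/-, from 311, 314 and 632 reads. WT and PS19 were level, with a ratio of 1.01 (0.859 to 1.18). PS19 Zbp1+/- was 2.20 times PS19 (1.92 to 2.53) and 2.22 times WT (1.93 to 2.55). Over 9 alternative settings the first of these differences lay between 0.72 and 1.14 log2 units, the lowest value being that after correction for GC content and length. No other gene with reads shared exon bases with Lhx6. The flanking genes Ndufa8, Rbm18 and Mrrf had ratios of 1.23, 1.26 and 1.63 for PS19 Zbp1+/- over PS19, all smaller than that of Lhx6. Morn5, which lies between Ndufa8 and Lhx6, had 7 reads in PS19 and 6 in PS19 Zbp1+/-, a ratio of 0.936 (0.260 to 3.25).

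Pvalb (chromosome 15, 78191114 to 78206400), which encodes a calcium-binding protein of fast-spiking basket and axo-axonic cells, was highest in PS19. Its FPKM was 31.6 in WT against 36.7 in PS19 and 28.2 in PS19 Zbp1+/-, from 567, 661 and 464 reads. PS19 was 1.16 times WT (1.04 to 1.30) and PS19 Zbp1+/- was 0.767 times PS19 (0.679 to 0.865). Between PS19 Zbp1+/- and WT the ratio was 0.892 (0.787 to 1.01), a difference that was not detectable at this depth and turned from -0.16 to 0.03 log2 units after the correction for GC content and length. Pvalb and Lhx6 mark overlapping sets of cells, and from PS19 to PS19 Zbp1+/- Pvalb was lower and Lhx6 higher.

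Erbb4 (chromosome 1, 68032186 to 69108059), the neuregulin receptor gene, was highest in PS19, as was Gad2. Its FPKM was 4.81 in WT against 6.45 in PS19 and 4.91 in PS19 Zbp1+/-, from 1025, 1377 and 960 reads. PS19 was 1.34 times WT (1.24 to 1.46), the highest PS19 to WT read ratio of the 9 genes. PS19 Zbp1+/- was 0.762 times PS19 (0.701 to 0.828) and 1.02 times WT (0.934 to 1.12). The last difference, 0.02 log2 units, was -0.12 under TPM, -0.10 with scaling by total reads and 0.17 after the correction for GC content and length.

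Lamp5 (ENSMUSG00000027270, chromosome 2, 136052239 to 136069917) encodes a LAMP family membrane protein and marks neurogliaform cells. It was lower in PS19 than in WT, alone among the 9 genes except after the correction for GC content and length, where Gad1 was also lower, at -0.14. Its FPKM was 11.4 in WT against 6.88 in PS19 and 9.97 in PS19 Zbp1+/-, from 578, 349 and 463 reads. PS19 was 0.603 times WT (0.526 to 0.689), PS19 Zbp1+/- was 1.45 times PS19 (1.26 to 1.67), and PS19 Zbp1+/- was 0.873 times WT (0.771 to 0.988). Over 9 alternatives the difference between PS19 and WT lay between -0.73 and -0.55 log2 units. In bulk tissue, fewer cells of a type and less RNA per cell cannot be told apart.

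The other neurogliaform genes did not share the Lamp5 pattern. Ndnf (chromosome 6, 65671590 to 65712326), which encodes a secreted factor, had a level of 1.86 FPKM in WT against 2.19 in PS19 and 2.09 in PS19 Zbp1+/-, from 325, 383 and 334 reads. PS19 was 1.18 times WT (1.01 to 1.37), and PS19 Zbp1+/- was 0.953 times PS19 (0.820 to 1.11). Reln (chromosome 5, 21884454 to 22344702), which encodes the extracellular signalling protein Reelin, had FPKM values of 2.82, 3.55 and 3.30, from 1153, 1455 and 1241 reads. PS19 was 1.26 times WT (1.16 to 1.36) and PS19 Zbp1+/- was 0.932 times PS19 (0.863 to 1.01). Both genes were lowest in WT on the deposited scale, and their intervals between PS19 and PS19 Zbp1+/- held 1. The correction for GC content and length moved Reln from 0.25 to 0.08 log2 units in PS19 minus WT and from 0.17 to -0.12 in PS19 Zbp1+/- minus WT. Between PS19 and PS19 Zbp1+/-, Reln was at -0.08, and at -0.36 under TPM, while Ndnf was at -0.05, and at 0.13 after the correction. Markers of Cajal-Retzius cells, a second source of Reln and Ndnf, were near the detection floor. Their 6 genes summed to an FPKM of 2.38 in WT against 3.33 in PS19 and 0.786 in PS19 Zbp1+/-, and Lhx1 and Ebf2 had 0 reads in PS19 Zbp1+/-. Trp73, the most abundant of them, had 120, 153 and 42 reads. Their part in the Reln and Ndnf values was not tested.

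**Figure D2:**
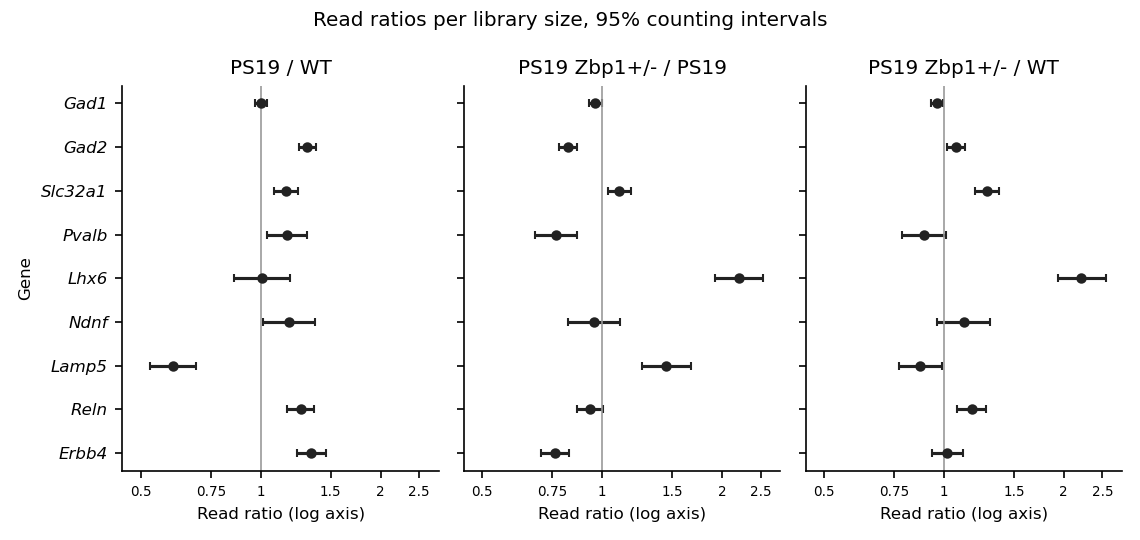
Read ratios per library size (horizontal log axis) of the 9 interneuron genes for PS19 over WT, PS19 Zbp1+/- over PS19 and PS19 Zbp1+/- over WT, with 95% counting intervals as bars and a line at 1. Lamp5 lay at 0.603 in the first panel, and Lhx6 at 2.20 and 2.22 in the others.

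Counted together, the 9 genes were mostly a little higher in PS19 than in WT. Differences are of log2(FPKM + 1), and a protein-coding gene entered when either library reached an FPKM of 1, as all 9 did. Of the 9, 8 were higher in PS19 by any amount and 1 lower, against 46.3% higher and 53.7% lower among 12703 genes. After the correction for GC content and length 7 were higher and 2 lower. Their median difference was 0.21 log2 units, beside -0.03 over all genes. Gad1 and Lhx6, at 0.00 and 0.01, were level. By counting error alone 6 genes lay above WT, 1 below and 2 could not be told from it, and such intervals lay above 1 for 28.3% and below 1 for 32.7% of all genes. At 1.5-fold, 1 of the 9 was lower (Lamp5, -0.66) and 0 were higher, against 2.71% lower, 6.34% higher and 9.05% in either direction. At 2-fold the count was 0 of 9, where 2.2% of all genes were higher, 0.291% lower and 2.5% either.

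From PS19 to PS19 Zbp1+/-, 3 of the 9 genes were higher by any amount (Slc32a1, Lhx6 and Lamp5) and 6 lower, against 53.7% and 46.3% of 12772 genes. Under TPM and with scaling by total reads 2 were higher and 7 lower, with medians of -0.34 and -0.22 beside -0.23 and -0.12 over all genes. On the deposited scale the median difference was -0.06, beside 0.04 over all genes. Counting intervals lay above 1 for 3 of the 9 genes and below 1 for 4, against 39% and 32.6% of all genes. At 1.5-fold 1 gene was higher (Lhx6, 0.96) and 0 were lower, against 9.37% higher, 12.1% lower and 21.5% either. Rescaling to TPM moved the median of all genes to -0.23 and left 1 interneuron gene higher and 2 lower at that fold, against 4.7% and 25.6%. At 2-fold on the log2(FPKM + 1) scale the count was 0 of 9, where 2% of all genes were higher, 5.16% lower and 7.16% either. With pseudocounts of 0.1 or 0.5 or with read ratios it was 1 (Lhx6).

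Relative to WT, PS19 Zbp1+/- was higher for 6 of the 9 genes by any amount and lower for 3, against 51% and 49% of 12436 genes, with a median of 0.10 beside 0.01. Under TPM and with scaling by total reads 4 were higher and 5 lower. The medians were then -0.055 and -0.052, beside -0.14 and -0.12 over all genes. Counting intervals lay above 1 for 4 genes and below 1 for 2, against 35.3% and 31.3%. At 1.5-fold Lhx6 was the 1 gene higher (0.97) and 0 were lower, where 6.71% of all genes were higher, 7.12% lower and 13.8% either. The 2-fold count on that scale was 0 of 9, beside 1.07% higher, 2.28% lower and 3.35% either, and it was again 1 (Lhx6) with the smaller pseudocounts or read ratios.

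Ordered by library, PS19 held the highest value for 6 of the 9 genes, PS19 Zbp1+/- for 2 (Slc32a1 and Lhx6) and WT for 1 (Lamp5), against 30.6%, 40.1% and 29.3% of 12875 genes. The lowest value was in WT for 6, in PS19 Zbp1+/- for 2 (Gad1 and Pvalb) and in PS19 for 1, against 26.1%, 36.2% and 37.7%. These orders include near ties. For Gad1, Reln and Ndnf, highest in PS19, the counting interval of the ratio to the next highest library held 1. For Lhx6, Erbb4 and Ndnf, lowest in WT, and Pvalb, the interval to the next lowest library also held 1. Under TPM and with scaling by total reads, Gad2 and Erbb4 were lowest in PS19 Zbp1+/- and Slc32a1 highest in PS19. The comparisons share libraries and are not independent of each other.

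Setting the GABA genes against markers of excitatory and of all neurons gives ratios that do not depend on library scaling. The FPKM of Gad1, Gad2 and Slc32a1 summed to 106.2 in WT against 119.6 in PS19 and 115.2 in PS19 Zbp1+/-. Divided by the FPKM of Slc17a7, the vesicular glutamate transporter gene of excitatory neurons, this sum was 0.517 in WT against 0.694 in PS19 and 0.311 in PS19 Zbp1+/-. Slc17a7 itself had an FPKM of 205.6, 172.4 and 370.7, highest in PS19 Zbp1+/-. Divided by Snap25, a presynaptic gene of all neurons, the sum was 0.454, 0.666 and 0.584. Both ratios were highest in PS19. Their size in PS19 Zbp1+/- depends on the divisor, since from PS19 Slc17a7 rose most of 7 pyramidal markers and Snap25 least of 6 pan-neuronal markers. Of 7 pyramidal neuron markers, 6 were lower in PS19 than in WT, with a median of -0.44 and Itpka lowest at -0.68, and all 7 were higher in PS19 Zbp1+/- than in PS19, with a median of 0.63. All 6 pan-neuronal markers were lower in PS19 than in WT, from Syt1 at -0.08 to Stmn2 at -0.57, and all 6 were higher in PS19 Zbp1+/- than in PS19, from Snap25 at 0.13 to Tubb3 at 0.79. Under TPM 4 of the 6 were lower in PS19 than in WT, and from PS19 to PS19 Zbp1+/- 5 of the 6 pan-neuronal and 5 of the 7 pyramidal markers were higher.

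Markers of tissue next to the hippocampus also differed between the libraries. All 7 thalamus markers were higher in PS19 than in WT, 6 of them at least 2-fold, with a median of 1.29 log2 units, and all 7 were lower in PS19 Zbp1+/- than in PS19, with a median of -1.31. Their summed FPKM was 18.6 in WT against 56.2 in PS19 and 12.0 in PS19 Zbp1+/-, and none had 0 reads in any library. Synpo2 was the highest of them in PS19 against WT (1.57) and Prkcd the lowest in PS19 Zbp1+/- against PS19 (-3.16). The thalamus holds a reticular nucleus of GABAergic neurons rich in Pvalb. Gad2, Pvalb and Erbb4 were highest in PS19, the library where these markers were highest. Gad1 was level between WT and PS19, with a read ratio of 1.002. Slc32a1 and Lhx6 were highest in PS19 Zbp1+/-, where the summed thalamus markers were lowest, and Lamp5 was highest in WT. The part of thalamic tissue in the interneuron gene values was not tested. Striatum and septum markers, from regions with many GABAergic neurons, had a median of -0.22 between PS19 and WT and a summed FPKM of 57.5, 52.4 and 40.6. From PS19 to PS19 Zbp1+/-, 7 of its 10 genes were higher and 3 lower, with a median of 0.25, Trpc4 highest at 0.90 and Zic1 lowest at -2.80, and after rescaling to TPM 5 were higher and 5 lower. Choroid plexus markers summed to an FPKM of 3377 in WT against 2142 in PS19 and 23.0 in PS19 Zbp1+/-, with Ttr at -7.84 between the last pair.

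Markers of mature glia were higher in PS19 than in WT, except P2ry12 of microglia at -0.13, and all were lower in PS19 Zbp1+/- than in PS19. Medians for these steps were 0.80 and -1.36 for oligodendrocytes, 0.56 and -0.61 for astrocytes with Gfap at 2.95 and -2.76, and 1.33 and -1.01 for microglia with Cx3cr1 at 2.18 in PS19 minus WT. Medians were 0.28 and 0.18 (-0.08 under TPM) for oligodendrocyte precursors, 0.05 and -0.22 for endothelial cells, and -0.28 and -0.53 for dentate granule neurons, whose marker Calb1 was at -1.02 and 1.17. The part of these cell types in the interneuron gene values was not tested.

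**Figure D3:**
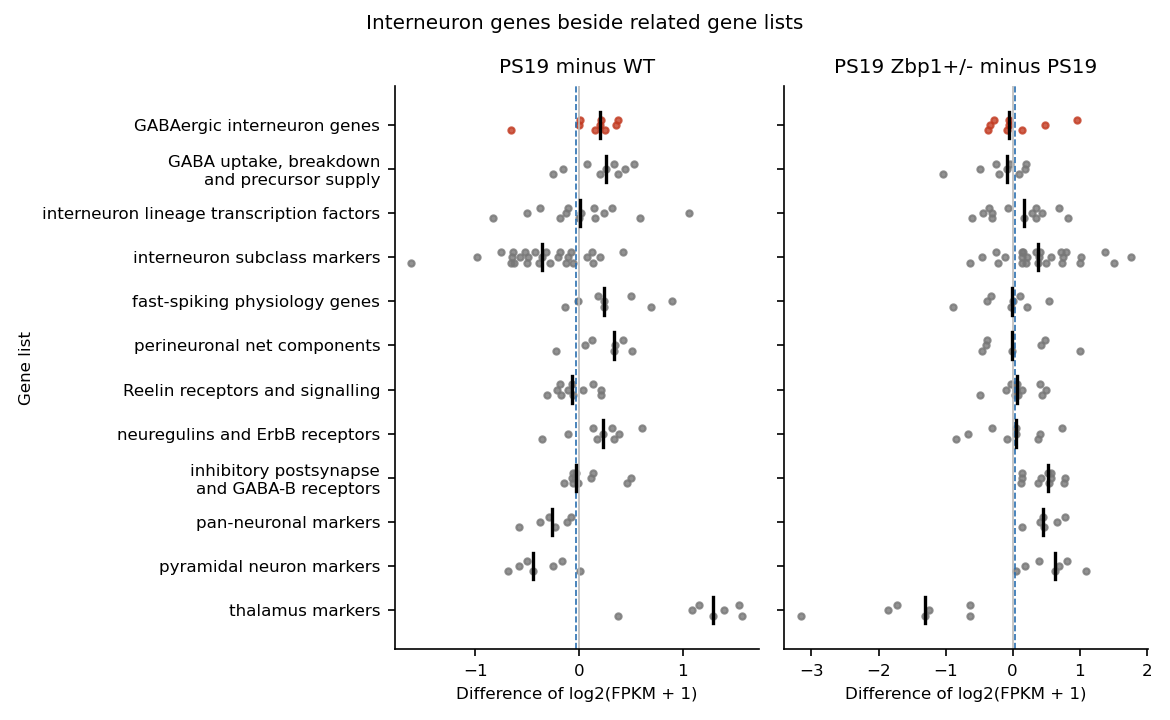
Differences of log2(FPKM + 1) for each tested gene (points) of the interneuron genes (red) and 11 other gene lists (grey), for the steps WT to PS19 and PS19 to PS19 Zbp1+/-, with the list median as a black bar and the median of all genes as a dashed line. The interneuron genes had medians of 0.21 and -0.06, and the thalamus markers 1.29 and -1.31.

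Genes that take up, break down or supply GABA were on the whole a little higher in PS19. Of 9 tested, 7 were higher than in WT and 2 lower, with a median of 0.26 and none at 1.5-fold. Abat, the GABA transaminase gene, had an FPKM of 27.3 in WT against 34.8 in PS19 and 37.4 in PS19 Zbp1+/-. Slc6a11, the astrocytic transporter gene, had the largest PS19 minus WT difference of the list (0.53). In PS19 Zbp1+/- against PS19, 3 were higher and 6 lower, with a median of -0.09 and Slc6a13 lowest at -1.04. Under TPM 0 were higher and 9 lower, with a median of -0.37. With scaling by total reads 2 were higher and 7 lower, with a median of -0.26. Slc6a13 encodes a transporter that is expressed in the meninges.

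Interneuron lineage transcription factors went both ways in PS19. Of 14 tested, 7 were higher than in WT and 7 lower, with a median of 0.01. The Dlx factors, which specify GABAergic neurons upstream of the Gad genes, lay between -0.18 (Dlx1) and 0.02 (Dlx5). Sp8 had 130 reads in WT against 39 in PS19 and 60 in PS19 Zbp1+/-, and PS19 was 0.299 times WT (0.204 to 0.431). Nr2f2, a factor of interneurons from the caudal ganglionic eminence, was at -0.50. Against PS19, PS19 Zbp1+/- had a median of 0.16 over 13 genes, or -0.05 under TPM, with Nr2f2 highest at 0.83. Npas1 followed Nr2f2 at 0.69, and Lhx6 itself was at 0.96. Nkx2-1, which acts upstream of Lhx6 in development, was weakly expressed, with 19, 21 and 20 reads.

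Most markers of single interneuron subclasses were lower in PS19 than in WT. Of 27 tested, 22 were lower than in WT and 5 higher, with a median of -0.35. At least 1.5-fold lower were 7, against 2.71% of all genes. Under TPM 19 were lower and 8 higher, with a median of -0.30. After the correction for GC content and length 21 were lower and 6 higher, with a median of -0.17. The lowest was Calb2 (calretinin), at -1.62, with an FPKM of 31.2 in WT against 9.49 in PS19 and 34.8 in PS19 Zbp1+/-. Sst, the neuropeptide somatostatin, had an FPKM of 315.2, 201.4 and 256.7, and PS19 was 0.639 times WT (0.607 to 0.672). Cck, the neuropeptide cholecystokinin, had 241.5, 143.2 and 291.6. Npy, neuropeptide Y, had 66.6, 46.8 and 39.1, so that of these it was the one whose lowest value was not in PS19. Vip, a marker of interneurons that inhibit other interneurons, had 4.45, 3.98 and 5.63, and its PS19 to WT ratio of 0.895 (0.747 to 1.07) was not detectably different from 1. Calb2 and Cck are also expressed by some excitatory neurons.

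Set against Gad1 within each library, Sst stood at an FPKM ratio of 6.59 in WT against 4.20 in PS19 and 5.57 in PS19 Zbp1+/-, and Calb2 at 0.651, 0.198 and 0.756. Like Sst, Lamp5 was highest against Gad1 in WT and lowest in PS19, at 0.239, 0.144 and 0.217. Pvalb was highest against Gad1 in PS19, at 0.660, 0.766 and 0.612. From PS19 to PS19 Zbp1+/-, 21 of 26 subclass markers were higher and 5 lower, with a median of 0.38, and 9 were at least 1.5-fold higher and 1 lower, against 9.37% and 12.1% of all genes. Under TPM 15 were higher and 11 lower. Calb2 was highest at 1.77 and Sncg lowest at -0.64. Adarb2, a marker of interneurons from the caudal ganglionic eminence, had the highest PS19 minus WT difference at 0.42.

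**Figure D4:**
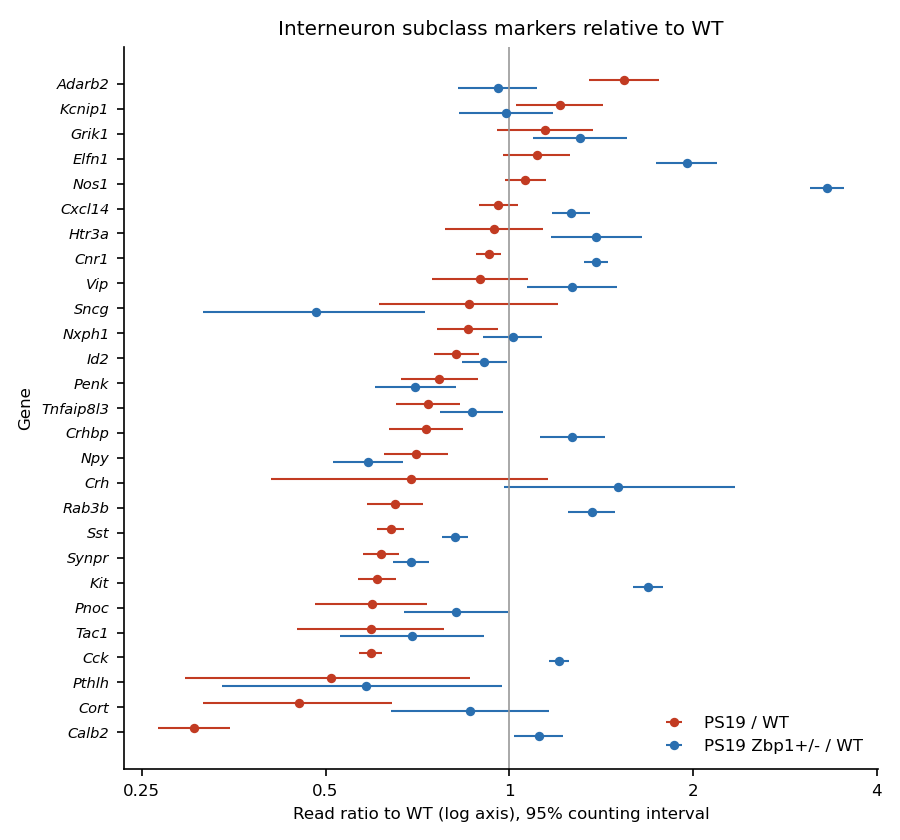
Read ratios to WT (horizontal log axis) of the 27 interneuron subclass markers tested between PS19 and WT, for PS19 (red) and PS19 Zbp1+/- (blue), with 95% counting intervals as bars and a line at 1. Calb2 lay at 0.305 in PS19 and 1.12 in PS19 Zbp1+/-, and Nos1 at 1.06 and 3.31.

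Genes of fast-spiking physiology had a median of 0.24 between PS19 and WT, with 6 of 8 higher. Syt2, a synaptotagmin of fast-releasing terminals, was highest at 0.89 (499, 1041 and 458 reads), and Kcns3 lowest at -0.14. In the other direction, Syt2 was lowest between PS19 Zbp1+/- and PS19 at -0.89 and Cntnap4 highest at 0.54. Syt2, Pvalb and the summed thalamus markers were each highest in PS19, and their relation was not tested. Perineuronal net genes, which form the matrix around many Pvalb cells, had a median of 0.33, with 6 of 7 higher in PS19 than in WT. Tnr was highest at 0.51 and Ncan lowest at -0.23, and Ncan was the highest between PS19 Zbp1+/- and PS19 at 1.001, with Ptprz1 lowest at -0.46. Acan, the aggrecan gene that is most typical of nets around Pvalb cells, had 77, 122 and 41 reads and stayed below an FPKM of 1 in each library.

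Reelin binds the receptors encoded by Vldlr and Lrp8. Vldlr had an FPKM of 9.01 in WT against 8.57 in PS19 and 9.01 in PS19 Zbp1+/-, and Lrp8, the other receptor gene, 6.88, 8.11 and 9.01. Dab1, the adaptor that both receptors engage, stood at 13.9, 13.3 and 19.2. Over the 11 genes of the Reelin list the median was -0.07 between PS19 and WT, with Rapgef1 highest at 0.21 and Cdk5 lowest at -0.30. For PS19 Zbp1+/- against PS19 it was 0.06, with Dab1 highest at 0.50 and Rap1a lowest at -0.48. After rescaling to TPM these medians changed sign, to 0.05 and -0.21. No gene of this list was 1.5-fold apart in either comparison.

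Of the neuregulin genes Nrg1, Nrg2 and Nrg3, Nrg3 was the most abundant per unit of length. Nrg1 had 79, 98 and 112 reads, and its FPKM stayed below 1. Nrg2 had an FPKM of 2.46, 3.06 and 2.81, and Nrg3 of 4.95, 5.54 and 7.71. The list of neuregulins and ErbB receptors also holds Adam17, Bace1 and Dlg4. Of its 9 genes tested between PS19 and WT, 7 were higher and 2 lower, with a median of 0.23. Erbb3, a neuregulin receptor gene of oligodendrocyte lineage cells, was highest at 0.60, and Dlg4, which encodes the scaffold PSD-95, lowest at -0.35. Against PS19, PS19 Zbp1+/- had a median of 0.05, or -0.21 under TPM, and Dlg4 was highest at 0.73 and Adam17 lowest at -0.85.

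On the receiving side, scaffolds of the inhibitory synapse and GABA-B receptors went both ways between PS19 and WT, with a median of -0.03 over 11 genes. Counting intervals lay above 1 for 4 of them and below 1 for 2, with extremes of 0.50 (Igsf9b) and -0.14 (Lhfpl4). All 11 were higher in PS19 Zbp1+/- than in PS19, with a median of 0.53, from Gphn (gephyrin) at 0.12 to Nlgn2 (neuroligin-2) at 0.79. After rescaling to TPM or to total reads 8 were higher and 3 lower, with medians of 0.25 and 0.34. The interneuron genes had a median of -0.06 in that comparison. Whether the lists differ was not tested.

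Sequence upstream of the start sites is shown for 4 of the interneuron genes, among them Lhx6. The 4 shown are those whose most upstream RefSeq start has 250 bases before it free of annotated exons. RefSeq (GRCm38.p6) held entries for 8 of the 9 genes, all but Ndnf. Each sequence runs 5′ to 3′ on the strand of the gene, and capitals mark CG dinucleotides.
Lhx6, chr2:36105409-36105658, minus strand: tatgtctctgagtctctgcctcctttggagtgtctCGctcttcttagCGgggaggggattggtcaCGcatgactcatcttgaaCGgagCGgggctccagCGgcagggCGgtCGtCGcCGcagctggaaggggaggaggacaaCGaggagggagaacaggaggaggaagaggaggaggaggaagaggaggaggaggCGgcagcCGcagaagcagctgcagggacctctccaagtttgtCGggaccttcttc
Erbb4, chr1:69108060-69108309, minus strand: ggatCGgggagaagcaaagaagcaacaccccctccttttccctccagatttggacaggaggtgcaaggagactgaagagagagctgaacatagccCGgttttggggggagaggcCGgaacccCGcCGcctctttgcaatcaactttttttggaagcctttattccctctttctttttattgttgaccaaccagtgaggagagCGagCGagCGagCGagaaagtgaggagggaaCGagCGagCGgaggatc
Reln, chr5:22344706-22344955, minus strand: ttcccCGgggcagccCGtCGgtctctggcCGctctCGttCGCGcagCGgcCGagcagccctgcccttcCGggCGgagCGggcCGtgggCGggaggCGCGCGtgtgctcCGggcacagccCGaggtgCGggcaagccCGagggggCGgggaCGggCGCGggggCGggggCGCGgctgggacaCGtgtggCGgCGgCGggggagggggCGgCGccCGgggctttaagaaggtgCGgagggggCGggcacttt
Pvalb, chr15:78206401-78206650, minus strand: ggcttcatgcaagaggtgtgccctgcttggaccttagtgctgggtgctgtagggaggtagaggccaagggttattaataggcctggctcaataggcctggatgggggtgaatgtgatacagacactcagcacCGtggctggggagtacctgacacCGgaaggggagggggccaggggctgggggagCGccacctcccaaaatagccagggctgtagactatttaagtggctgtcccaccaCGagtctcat

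These windows differed widely in CG content. Reln held 37 CG dinucleotides, a number that 2.2% of the 32851 RefSeq promoters reach, Lhx6 14 (29.4%), Erbb4 12 (33.5%) and Pvalb 4 (62.2%). The GC box GGGCGG, searched on both strands, was found 6 times upstream of Reln and 1 time upstream of Lhx6, and 32.7% of all promoters hold it. A CCAAT box was found upstream of Lhx6, as in 33.8% of promoters. No match of TATAAA (12.4% of promoters) or of the homeodomain core TAATTA (4.84%) lay in the 4 windows, and no match of 1 motif overlapped a match of another. The Erbb4 and Pvalb windows held none of the 4 motifs. The expression table sums all start sites of a gene. Lhx6 has 3 in RefSeq. Pvalb has a further start whose 250 bases hold 23 CG dinucleotides, a number that 13.3% of promoters reach. Use of single start sites was not analysed here.

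Many genes had the same pattern as a given interneuron gene over only 3 libraries. Among 7713 protein-coding genes with a mean FPKM of at least 5, those closest to Gad1 over both steps, WT to PS19 and PS19 to PS19 Zbp1+/-, were Efr3a, AI593442 and Cdkn1b, at Euclidean distances of 0.0058, 0.0063 and 0.0089 log2 units, and 368 genes lay within 0.1. The genes closest to Reln were Ankfy1, Pdzd8 and Luzp1, at 0.011, 0.012 and 0.013, with 133 genes within 0.1.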

How the data were processed

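Hippocampal RNA was extracted with TRIzol and made into libraries with an NEB Next Ultra RNA kit, per the labels' protocols. Trim Galore 0.6.5, STAR 2.5.3a, featureCounts 2.0.4 and the build mm39 are named in the submitters' processing notes, while 98.3% of 54409 gene positions in the deposited table equal those of GENCODE M21 (GRCm38), so positions are given as GRCm38. Strandedness is not given in the sources used here. The authors deposited FPKM values, 1 column per library. Each FPKM times gene length was a whole multiple of 1 step, which gave whole reads and implied library sizes. Differences of log2(FPKM + 1) cover protein-coding genes that reach an FPKM of 1 in either library compared. Read ratios per implied library size have exact (Clopper-Pearson) 95% intervals, and FPKM values exact Poisson intervals. Recovery and calls were tested on simulated data. The members and the 20 other lists, of 178 genes, were chosen with earlier results of these data known. The rule for named genes took all 9 members, the highest and lowest tested gene of each list for the steps WT to PS19 and PS19 to PS19 Zbp1+/- (for cell type lists only some are printed, and some genes the rule takes are not reported here), a fixed set such as Sst, Vldlr and Nrg1, and the 3 genes closest to Gad1 and to Reln. The genes near Lhx6, the noncoding genes, and Npas1, Nkx2-1, Dlx1, Dlx5, Nos1, Elfn1, Kit, Lhx1 and Ebf2 were named after their values were seen, as were the ratios within a library. Likeness was the Euclidean distance over both differences. Alternatives were other pseudocounts, filters and scalings, read ratios with reads of at least 3, and, added after the data were seen, a correction for GC content and length and the scalings of the other lists. Computation used pandas 2.3.3, numpy 2.4.6 and scipy 1.17.1 under Python 3.11.15, with matplotlib 3.10.9 for figures.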

Additional observations from a re-analysis of the deposited data

How the results depend on the processing

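No paired analysis was possible because each genotype has 1 library, and for the same reason no library could be left out. After rescaling to TPM the median difference of the 9 genes was 0.34 for PS19 minus WT, -0.34 for PS19 Zbp1+/- minus PS19 and -0.055 for PS19 Zbp1+/- minus WT, and with scaling by total reads the last pair of medians was -0.22 and -0.052. The median of all genes in PS19 Zbp1+/- minus PS19 was then -0.23 and -0.12, and in PS19 Zbp1+/- minus WT it was -0.14 and -0.12. Correction for GC content and length gave a median of -0.15 for PS19 Zbp1+/- minus PS19. Genes at least 1.5-fold apart between PS19 and WT numbered 0 in place of 1 under TPM, where Lamp5 was at -0.58, and under the GC correction, where it was at -0.55. Between PS19 Zbp1+/- and PS19 they numbered 3 under TPM. Genes at least 2-fold apart numbered 1 (Lhx6) in place of 0 in both comparisons of PS19 Zbp1+/- with pseudocounts of 0.1 and 0.5 and with read ratios. Of 235 values of single genes under an alternative, 195 moved by no more than the half-width of the counting interval of their log2 read ratio. The other 40 moved by more. Settings that change only the filter cannot move the value of a single gene, and their values are among the 195. In 11 of the 235 the sign changed, all with a main difference of at most 0.17. No value past 1.5-fold changed sign under the alternatives run. Scaling by total reads puts the recovered totals in place of the implied library sizes, and why these differ was not tested. The cause of the other shifts was not tested. Depth limits Ndnf, Lhx6, Lamp5 and Pvalb most, since they rest on the fewest reads.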

Other observations

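Noncoding genes next to interneuron genes entered no count above, and they were chosen after their values were seen. Dlx6os1, the antisense RNA of the Dlx5 and Dlx6 locus that is typical of GABAergic neurons, had 296 reads in WT against 260 in PS19 and 190 in PS19 Zbp1+/-. PS19 was 0.877 times WT (0.739 to 1.04), and PS19 Zbp1+/- was 0.798 times PS19 (0.659 to 0.966). Dlx1as had 45, 99 and 44 reads, PS19 being 2.20 times WT (1.53 to 3.20), while Dlx1 on the opposite strand had 732, 636 and 763. Without strand information, reads of such a pair cannot be told apart. Gad1os had 1, 6 and 0 reads and the pseudogene Gad1-ps 0, 2 and 1, beside at least 5568 of Gad1.

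Nos1, the neuronal nitric oxide synthase gene of neurogliaform and ivy cells, had an FPKM of 6.74 in WT against 7.16 in PS19 and 22.3 in PS19 Zbp1+/-. Like Lhx6 it was level between WT and PS19, with a ratio of 1.06 (0.984 to 1.15), and higher in PS19 Zbp1+/-, 3.12 times PS19 (2.93 to 3.32). Elfn1, a postsynaptic gene of Sst cells, showed the same order at 6.53, 7.24 and 12.8. Kit, a receptor gene of some interneurons, had 2099, 1277 and 3249 reads and was lowest in PS19. All these values rest on 1 library per genotype.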
